A study of Homo sapiens with 8 samples.

Results

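Laminins are the cross-shaped glycoproteins on which basement membranes are built. The genes examined here encode 9 of their chains, LAMA1, LAMA2, LAMA3, LAMA4 and LAMA5 (alpha chains), LAMB1, LAMB2 and LAMB3 (beta chains) and LAMC1 (a gamma chain), taken by symbol from the 58206 genes of the count table. Of these 9, 6 passed the expression filter and were tested, and LAMA1, LAMA2 and LAMA4 did not. RNA was sequenced from the established hepatocellular carcinoma line Alexander1 and a stable derivative of it, with 4 libraries each. The wt group (genotype wt, Axin1 -) is the line as obtained, whose Axin1 lacks the region that binds the kinase GSK3, so that Wnt signalling is constantly active according to the series text. The Axin1+ group carries a plasmid-encoded Axin1 introduced by retrovirus and kept under hygromycin B with selection of clones, at physiological levels according to the series text. That protocol is printed for every sample, the wt ones included, no separately transduced control is described, and a derivative that passed through clonal selection may represent 1 clone. Both groups grew in the same serum-containing medium and were used at similar confluence.

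Each laminin is a trimer of 1 alpha, 1 beta and 1 gamma chain, assembled inside the cell before secretion. The alpha chain carries the main sites for integrins and dystroglycan, while the beta and gamma chains complete the coiled-coil stem and, with their short arms, the polymer. LAMC1 is the usual gamma partner of LAMB1 and LAMB2, whereas LAMB3 is known as a partner of LAMA3 in the laminin that anchors epithelia. In healthy liver the sinusoidal space holds little laminin, and hepatocellular carcinoma and biliary epithelium are known for more of it.

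In the libraries labelled Axin1+, LAMB3, LAMA5 and LAMB2 rose and LAMA3 fell, while LAMB1 and LAMC1 did not pass the test. The beta chain LAMB3 moved most, from 8.23 CPM ± 9.23 to 41.6 CPM ± 15.9 (SD, n = 4 each; CPM is the count scaled to a common library total). LAMA3 fell from 27.5 CPM ± 1.89 to 12.2 CPM ± 2.53 while LAMA5 rose from 106 CPM ± 11.6 to 171 CPM ± 53.4, so that both expressed alpha chains changed, in opposite directions. Of the 6 tested genes 4 had an adjusted p below 0.05 (quasi-likelihood F test of edgeR, adjusted by Benjamini-Hochberg across 14289 genes), compared with 19.2% of all tested genes. The same 4 had groups that did not overlap, compared with 23.9% of all tested genes. The 4 calls became 1 (LAMA3) without wt replicate 2, and 2 without wt replicate 3 or Axin1+ replicate 3. Of the 6, 3 were higher and 1 was lower, compared with 10.4% higher (1485 genes) and 8.77% lower (1253 genes) among all tested genes. With total counts as the only scaling these were 1724 and 868, and the laminin calls were the same 4 under both.

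The start regions of the 4 called genes are shown so that the letters before the gene that fell can be read beside those of the genes that rose. They are the 250 bases before the transcription start as RefSeq gives it (GRCh38.p14), written 5′ to 3′ along the gene. The LAMA3 window (chr18:23872770-23873019, plus strand) lies inside the longer gene model of GENCODE. The LAMB3 windows 1 (chr1:209652426-209652675, minus strand) and 3 (chr1:209651375-209651624, minus strand) belong to alternative starts, and a window 2 that overlaps window 1 is not printed. LAMA5 (chr20:62367313-62367562, minus strand) and LAMB2 (chr3:49133051-49133300, minus strand) have 1 window each. Capitals mark matches to the AP-1 motif, searched on both strands.
LAMA3: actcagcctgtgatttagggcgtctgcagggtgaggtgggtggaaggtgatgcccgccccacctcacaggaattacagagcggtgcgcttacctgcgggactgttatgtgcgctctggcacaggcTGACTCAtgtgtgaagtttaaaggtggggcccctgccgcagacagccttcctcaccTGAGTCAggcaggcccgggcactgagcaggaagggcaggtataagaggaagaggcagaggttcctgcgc
LAMB3 window 1: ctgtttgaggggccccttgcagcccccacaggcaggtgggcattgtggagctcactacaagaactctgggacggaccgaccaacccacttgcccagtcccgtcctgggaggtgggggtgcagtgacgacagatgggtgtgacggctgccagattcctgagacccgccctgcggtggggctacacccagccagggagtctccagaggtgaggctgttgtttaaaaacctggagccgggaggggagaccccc
LAMB3 window 3: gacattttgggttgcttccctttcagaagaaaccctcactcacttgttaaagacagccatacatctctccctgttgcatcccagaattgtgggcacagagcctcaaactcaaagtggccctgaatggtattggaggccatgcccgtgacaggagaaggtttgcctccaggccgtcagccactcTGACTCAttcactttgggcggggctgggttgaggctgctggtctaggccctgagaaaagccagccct
LAMA5: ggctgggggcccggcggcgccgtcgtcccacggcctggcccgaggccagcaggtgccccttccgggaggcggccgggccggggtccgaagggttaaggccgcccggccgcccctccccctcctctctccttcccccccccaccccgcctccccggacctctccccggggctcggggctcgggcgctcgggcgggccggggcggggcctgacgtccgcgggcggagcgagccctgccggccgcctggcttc
LAMB2: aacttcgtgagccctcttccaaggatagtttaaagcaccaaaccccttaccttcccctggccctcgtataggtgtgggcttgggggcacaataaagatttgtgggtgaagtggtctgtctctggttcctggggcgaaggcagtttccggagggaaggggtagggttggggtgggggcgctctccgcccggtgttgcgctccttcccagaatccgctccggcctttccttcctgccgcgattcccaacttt

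RefSeq windows were found for 8 of the 9 genes, 10 windows in all, and LAMA1 had no match. The AP-1 motif, TGANTCA, stood in 2 of the 10 windows, those of LAMA3 (125 and 69 bases before the start, first base counted) and LAMB3 window 3 (67 bases before it), compared with 6.57% of all 35097 windows of the same length. The letters of a TCF/LEF site, searched on both strands as CTTTG followed by any pair of bases that are each A or T, stood in 1 of the 10, that of LAMA2 at 233 bases, compared with 12.0% of all windows. Neither motif overlaps the other in these windows. GC content was 82.8% in the LAMA5 window, 79.6% in that of LAMC1 and 70.4% in that of LAMB1. It was 60.4% for LAMA3, 58.4% for LAMB2, and 64.0%, 60.0% and 54.0% for LAMB3 windows 1 to 3. For LAMA2 it was 53.2% and for LAMA4 48.4%. A match is a stretch of letters and was not tested as a binding site, and the counts do not tell which start was used.

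The libraries and cells were checked first. Library totals ran from 11232951 to 15263761 counts in wt and from 12372436 to 26400782 in Axin1+, so 3 counts stood for 0.108 to 0.267 CPM, counting error only. On the first 2 principal components wt replicate 1 lay apart from the other wt libraries (61.5 on the second component, others of its group -30.3 to -9.60) and Axin1+ replicate 1 was nearest to wt (22.2 on the first, other Axin1+ libraries 48.7 to 56.8). AXIN1 mRNA stood at 52.4 CPM ± 3.49 in wt and 45.4 CPM ± 5.13 in Axin1+ (SD, n = 4 each, edgeR adjusted p = 0.267), so it was not higher in the libraries labelled Axin1+, and each direction given here rests on the labels. All 14 hepatocyte markers were expressed, with summed levels of 29290 to 33310 CPM in wt and 24570 to 29790 CPM in Axin1+. SERPINA1 alone averaged 16130 CPM in wt and 10358 CPM in Axin1+. Of the 14, 3 were called higher and 4 lower (50.0% called, compared with 19.2% of all tested genes). ALB, named after its values were seen, was lowest in the replicate 1 libraries. It had 46.7 CPM in wt replicate 1 (other wt libraries 159 to 208) and 13.8 CPM in Axin1+ replicate 1 (others 445 to 681). TTR, APOA1, FGB and HNF4A were also lowest in both replicate 1 libraries. AFP was instead highest in both, at 536 CPM in wt replicate 1 (others 279 to 324) and 311 CPM in Axin1+ replicate 1 (others 79.7 to 146). The remaining hepatocyte markers were neither lowest in both nor highest in both. Of 10 endothelial markers 5 had at most 3 counts in every library (TEK and EMCN had none), and their sum, 4.58 to 7.04 CPM in wt and 34.3 to 58.6 CPM in Axin1+, was nearly all PECAM1 (33.8 to 58.3 CPM in Axin1+). Of 10 stellate and fibroblast markers 5 had at most 3 counts everywhere, with sums of 2.84 to 3.47 and 1.28 to 4.88 CPM. The 6 biliary markers summed to 29.6 to 58.5 and 42.7 to 82.7 CPM. Of 8 leukocyte markers 4, PTPRC among them, had at most 3 counts everywhere, and the sum, 422 to 949 and 672 to 920 CPM, was nearly all LYZ. In bulk RNA a change in the number of cells that express a gene and a change per cell cannot be told apart.

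LAMA5 encodes the alpha chain found in most adult basement membranes. The gene (ENSG00000130702) lies on chromosome 20 from 62307955 to 62367312 (GRCh38, minus strand). Its level was 105, 110, 90.1 and 117 CPM in wt replicates 1 to 4 and 247, 128, 166 and 141 CPM in Axin1+ replicates 1 to 4. Every Axin1+ library was above every wt library, with Axin1+ replicate 1 highest and the gap between the groups, 117 to 128 CPM, small. The log2 fold change was 0.69 (SE 0.20, 95% interval 0.26 to 1.12, edgeR adjusted p = 0.0321). It no longer passed without wt replicate 2, wt replicate 3 or Axin1+ replicate 3 (edgeR adjusted p = 0.0759, 0.0810 and 0.0708), and without Axin1+ replicate 1 it still did at a log2 fold change of 0.45. Its exons share 244 bases with ADRM1 on the opposite strand, at 271 CPM ± 41.2 in wt and 234 CPM ± 29.3 in Axin1+ (SD, n = 4 each, edgeR adjusted p = 0.335). The strand setting of the counting is not given in the sources used here.

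LAMA3 encodes the alpha chain of epithelial anchoring laminins. It (ENSG00000053747) lies on chromosome 18 from 23689443 to 23956222, plus strand. Its level was 28.2, 25.2, 26.9 and 29.6 CPM in wt replicates 1 to 4 and 14.4, 10.6, 9.61 and 14.4 CPM in Axin1+ replicates 1 to 4. The groups were well apart, and the lowest wt library was above the highest Axin1+ library by more than either group's range. The log2 fold change was -1.16 (SE 0.17, 95% interval -1.53 to -0.79, edgeR adjusted p = 0.00127). This was the only laminin call that held in all 20 alternative fits, at log2 fold changes between -1.25 and -1.06.

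The other alpha chains were near the floor of detection. LAMA4, the alpha chain of vessel walls and mesenchyme, had 9, 5, 1 and 8 counts in wt and 9, 1, 2 and 1 counts in Axin1+, which is at most 0.801 CPM. LAMA2, the alpha chain of muscle and nerve, had 0, 3, 2 and 0 counts in wt and 2, 1, 0 and 1 in Axin1+, and LAMA1, the chain of early embryonic basement membranes, had at most 1 count in any library. No fold is given for LAMA1 and LAMA2, whose counts were all at or under 3, and for these genes a difference was not detectable at this depth. Fitted without the expression filter, LAMA4 had a log2 fold change of -1.55 (edgeR adjusted p = 0.203).

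**Figure D1:**
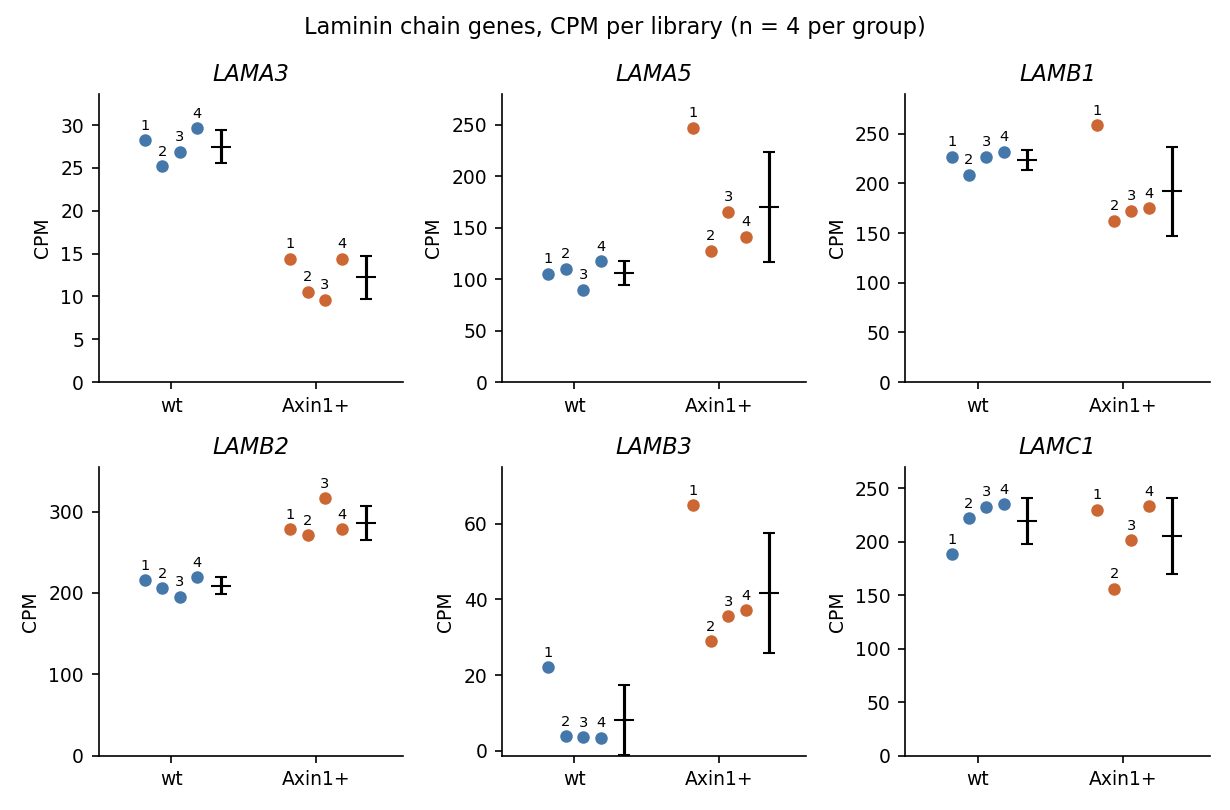
CPM of the 6 tested laminin genes in each library (dots, numbered by replicate; blue wt, orange Axin1+), with the mean and SD of each group (black, n = 4). LAMA3, LAMA5, LAMB2 and LAMB3 separate the groups, while the LAMB1 and LAMC1 values overlap; the 22.1 CPM of wt replicate 1 stands above the other wt libraries for LAMB3, whose SD bar reaches below 0.

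LAMB3 is the beta chain that joins LAMA3 in epithelial anchoring laminin. It (ENSG00000196878) lies on chromosome 1 from 209614870 to 209652466, minus strand. Its level was 22.1, 3.86, 3.56 and 3.44 CPM in wt replicates 1 to 4 and 64.9, 28.9, 35.6 and 37.2 CPM in Axin1+ replicates 1 to 4. The groups did not overlap, and the replicate numbered 1 was the highest library in each. The biliary keratin KRT19 was also highest in those 2 libraries. It had 16.9 CPM in wt replicate 1 (other wt libraries 1.29 to 3.99) and 34.4 CPM in Axin1+ replicate 1 (others 0.0781 to 1.43). Of the other biliary markers, KRT7 and SOX9 were highest in both as well, MUC1 only within Axin1+, and EPCAM in neither. CFTR was instead lowest in both. It had 0.534 CPM in wt replicate 1 (others 1.69 to 2.93) and 8.11 CPM in Axin1+ replicate 1 (others 10.5 to 14.8). The part of these markers in the LAMB3 values was not tested. The log2 fold change of LAMB3 was 2.36 (SE 0.57, 95% interval 1.10 to 3.62, edgeR adjusted p = 0.0172). Without wt replicate 1 it was 3.52, and without wt replicate 2 it was 2.11 and missed the threshold (edgeR adjusted p = 0.0554). With both replicate 1 libraries left out, a setting chosen after seeing the data, it was 3.23 (edgeR adjusted p = 4.4e-08).

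LAMB2 is the beta chain of kidney, nerve and vessel basement membranes and an alternative partner to LAMB1. It (ENSG00000172037) lies on chromosome 3 from 49121114 to 49133118, minus strand. Its level was 216, 206, 195 and 220 CPM in wt replicates 1 to 4 and 278, 271, 317 and 279 CPM in Axin1+ replicates 1 to 4. All Axin1+ libraries lay above all wt libraries, and the change was small in size, with a log2 fold change of 0.45 (SE 0.11, 95% interval 0.21 to 0.70, edgeR adjusted p = 0.0181). It missed the threshold without wt replicate 2, wt replicate 3 or Axin1+ replicate 3 (edgeR adjusted p = 0.0657, 0.0563 and 0.0648), at log2 fold changes of 0.40 to 0.44. The pseudogene LAMB2P1 could share reads with it, and had at most 24 counts in any library against at least 2193 for LAMB2.

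LAMB1 is the widespread beta chain. It (ENSG00000091136) lies on chromosome 7 from 107923799 to 108003255, minus strand. Its level was 227, 209, 227 and 232 CPM in wt replicates 1 to 4 and 259, 162, 173 and 175 CPM in Axin1+ replicates 1 to 4. Axin1+ replicate 1 was above all wt libraries, and the other Axin1+ libraries were below them. The log2 fold change was -0.22 (SE 0.16, 95% interval -0.56 to 0.12, edgeR adjusted p = 0.353). Without Axin1+ replicate 1 it was -0.40 and passed the threshold (edgeR adjusted p = 0.0331), and so it did with both replicate 1 libraries left out (-0.39, edgeR adjusted p = 0.0217). Exons of DLD on the opposite strand share 70 bases with it.

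LAMC1 is the gamma chain shared by most laminins. It (ENSG00000135862) lies on chromosome 1 from 183023460 to 183145592, plus strand. Its level was 188, 222, 233 and 235 CPM in wt replicates 1 to 4 and 230, 156, 201 and 233 CPM in Axin1+ replicates 1 to 4. The groups overlapped, with only Axin1+ replicate 2 below every wt library. The log2 fold change was -0.10 (SE 0.15, 95% interval -0.42 to 0.23, edgeR adjusted p = 0.686). Without Axin1+ replicate 2, its lowest library, the value was 0.02 (edgeR adjusted p = 0.953).

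LAMB4 and LAMC3, a further beta and a further gamma chain, were looked up after these values were seen. LAMC3 had at most 2 counts and LAMB4 at most 3 in any library.

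**Figure D2:**
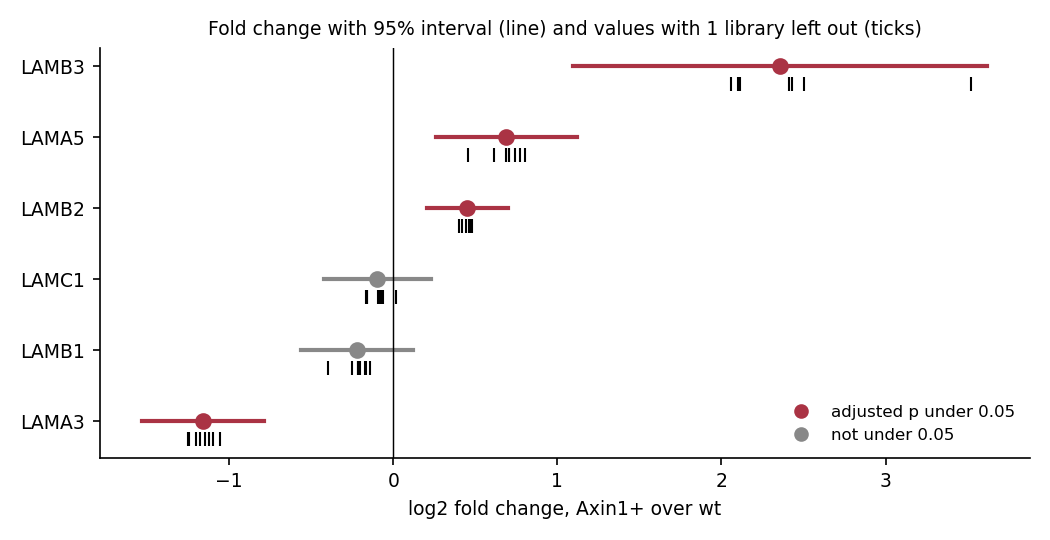
Log2 fold change of each tested laminin gene, Axin1+ over wt, with its 95% interval (line) and the values with 1 library left out (ticks below). LAMB3 has the widest interval, 1.10 to 3.62, and its value reaches 3.52 without wt replicate 1, while LAMA3 stays below -1 in all of them.

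Levels were compared between chains per length, as CPM per kb of exon. In wt, LAMB2 (30.4 ± 1.58), LAMB1 (27.5 ± 1.24) and LAMC1 (26.1 ± 2.57 CPM per kb, SD, n = 4 each) stood highest, and the ranges of LAMB1 and LAMC1 overlapped, as did those of LAMB2 and LAMB1. LAMA5 followed at 7.41 ± 0.812, then LAMA3 at 1.87 ± 0.129 and LAMB3 at 1.76 ± 1.97 CPM per kb, whose ranges overlapped. That overlap came from wt replicate 1, where LAMB3 was at 4.71. In wt replicates 2 to 4 LAMB3 was at 0.733 to 0.823 and LAMA3 at 1.72 to 2.02 CPM per kb. In Axin1+ the order was LAMB2 (41.7 ± 3.01), LAMC1 (24.4 ± 4.24), LAMB1 (23.6 ± 5.48), LAMA5 (11.9 ± 3.74), LAMB3 (8.88 ± 3.39) and LAMA3 (0.835 ± 0.172 CPM per kb). There LAMB2 lay above LAMB1 and LAMC1 in every library, LAMC1 and LAMB1 overlapped, and so did LAMA5 and LAMB3 across libraries.

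The make-up of each chain class followed from these levels and is given as a description. LAMA5 took 78.7%, 81.4%, 77.2% and 79.9% of alpha chain mRNA per length in wt replicates 1 to 4, and 94.5%, 92.4%, 94.6% and 90.9% in Axin1+ replicates 1 to 4. LAMA3 made up nearly all of the rest, 20.2% ± 1.83 in wt and 6.79% ± 1.78 in Axin1+ (SD, n = 4 each), and the groups did not overlap. Per length, LAMA5 was 3.44 to 4.50 times LAMA3 in wt and 10.1 to 17.7 times in Axin1+. Among beta chains the LAMB1 share was 46.1% ± 2.19 in wt and 31.6% ± 3.69 in Axin1+, with no overlap (43.6% to 48.8% and 28.3% to 36.9%). The LAMB3 share was 7.36%, 1.46%, 1.33% and 1.20% in wt replicates 1 to 4 and 16.1%, 9.40%, 10.1% and 11.3% in Axin1+ replicates 1 to 4. The LAMB2 share, 51.1% ± 1.91 and 56.7% ± 6.59, overlapped between the groups because of Axin1+ replicate 1 (47.1%, against 58.0% to 61.6% in the other Axin1+ libraries). LAMB2 was 1.02 to 1.17 times LAMB1 per length in wt and 1.28 to 2.17 times in Axin1+. With the longest transcript as gene length the wt ratio was 0.875 to 1.0, so which of the pair was higher in wt depended on the length used.

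Summed over a class, the alpha chains reached 9.33 CPM per kb ± 0.877 in wt and 12.8 ± 3.83 in Axin1+, and the beta chains 59.7 ± 3.57 and 74.1 ± 8.86 (SD, n = 4 each). Alpha chains were the scarcest class in every library. Their sum was 0.295 to 0.419 of LAMC1 in wt and 0.393 to 0.670 of it in Axin1+. The beta sum was 2.06 to 2.86 times LAMC1 in wt and 2.52 to 3.53 times in Axin1+. Both ratios overlapped between the groups.

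**Figure D3:**
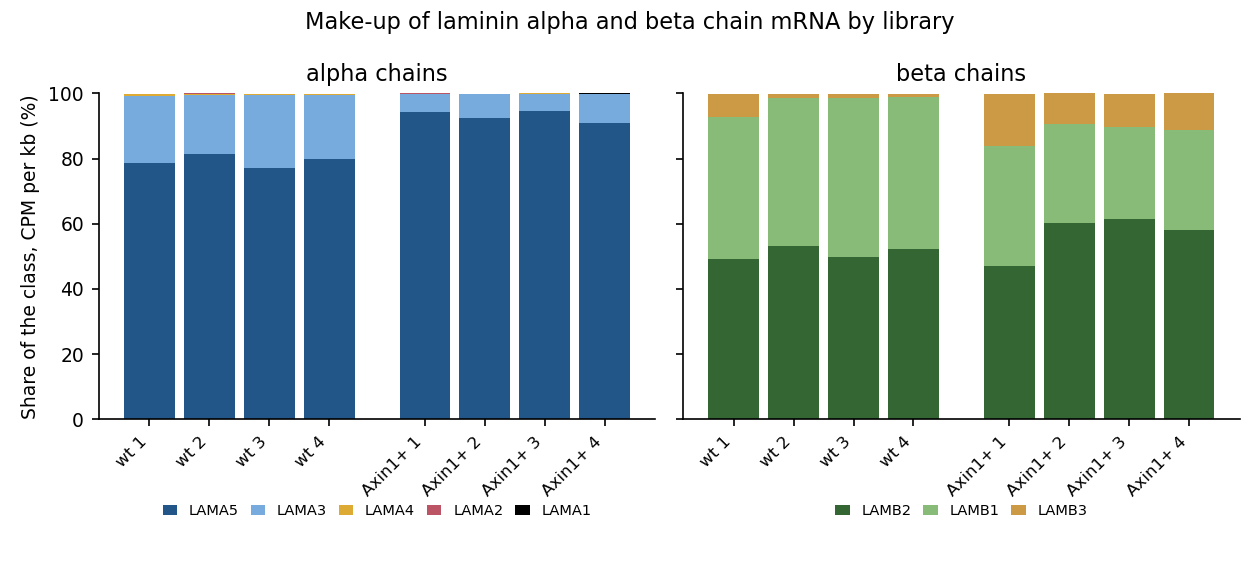
Share of each alpha chain (left) and each beta chain (right) in the CPM per kb of its class, 1 bar per library. LAMA3 fills 18.1% to 22.5% of the alpha bars in wt and 5.34% to 9.01% in Axin1+, and the LAMB3 segment is taller in each Axin1+ bar than in any wt bar.

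The laminin genes lie on 6 chromosomes, and the nearest tested genes on each side (10 and 10) were set beside each of the 6 tested ones. The median log2 fold change of the 20 neighbours was 0.07 for LAMA3, -0.12 for LAMA5, 0.02 for LAMB1, 0.002 for LAMB2, 0.03 for LAMB3 and 0.01 for LAMC1, and that of all tested genes was 0.003. No neighbour of LAMA3 was called in either direction. Around LAMB3, 4 neighbours were called higher and 1 lower, the same counts as around LAMB1, compared with 19.2% of all tested genes. Among those around LAMB3 was G0S2 (log2 fold change 2.49, edgeR adjusted p = 0.00298), the next tested gene by start position, named after its value was seen. The part of these neighbours in the LAMB3 value was not tested. Laminin transcripts are long, and among the 7020 tested genes with at least 4688 exon bases, the length of LAMB3, the median log2 fold change was 0.03 and 19.8% were called.

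**Figure D4:**
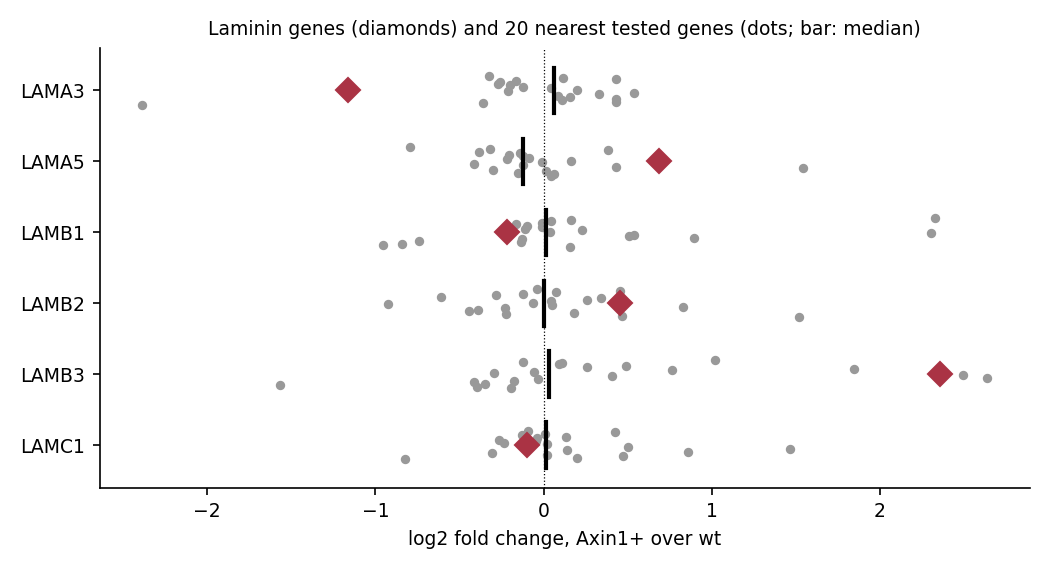
Log2 fold change of each tested laminin gene (diamond) and of its 20 nearest tested neighbours (dots, with their median as a bar). LAMA3 lies below all but 1 of its neighbours, and G0S2, at 2.49, lies just above LAMB3.

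Of 15 receptor genes for laminin, 14 passed the filter, with 4 called higher, 1 lower and 9 not called. That is 35.7% called, compared with 19.2% of all tested genes, and a median log2 fold change of 0.37, compared with 0.003. The integrin subunits ITGA6 and ITGA3, which pair with ITGB1 as laminin receptors, rose. ITGA6 went from 37.6 CPM ± 12.4 to 119 CPM ± 27.8 (log2 fold change 1.66, SE 0.25, edgeR adjusted p = 0.00142) and ITGA3 from 9.03 CPM ± 3.88 to 27.1 CPM ± 4.71 (1.59, SE 0.27, edgeR adjusted p = 0.00278; SD, n = 4 each). ITGA1, which binds collagen and laminin, went from 35.3 CPM ± 5.56 to 73.7 CPM ± 12.9 (log2 fold change 1.06, SE 0.16, edgeR adjusted p = 0.00162). ITGB1 had a log2 fold change of 1.11 (edgeR adjusted p = 0.0178), a call lost without Axin1+ replicate 4 (edgeR adjusted p = 0.0610). SDC4, a heparan sulfate proteoglycan, fell, with a log2 fold change of -0.85 (edgeR adjusted p = 0.0279) that missed the threshold when any of wt replicates 2 and 4 or Axin1+ replicates 2, 3 and 4 was left out (edgeR adjusted p up to 0.0910). ITGB4 and DAG1 are given for their roles, chosen after their values were seen. ITGB4, the other beta partner of ITGA6, had 49.5 CPM in Axin1+ replicate 1 and 9.49 to 11.8 CPM in the other Axin1+ libraries, against 16.0 to 39.2 CPM in wt, and its log2 fold change of -0.36 (edgeR adjusted p = 0.650) became -1.31 without Axin1+ replicate 1 (edgeR adjusted p = 0.0082). DAG1, dystroglycan, had a log2 fold change of 0.46 (edgeR adjusted p = 0.0634), which passed without wt replicate 4 or Axin1+ replicate 2 (edgeR adjusted p = 0.0297 and 0.0494). Without Axin1+ replicate 4, 3 genes of the list were called, and with both replicate 1 libraries left out 5 were higher and 4 lower.

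Other basement membrane components formed a list of 26 genes, of which 13 were tested, 4 were called higher and 0 lower (30.8% called, compared with 19.2% of all tested genes; median log2 fold change 0.51). An unadjusted p under 0.05 was found for 8 of the 13, compared with 33.5% of all tested genes. COL4A5 and SMOC1, with at most 5 counts in any wt library, passed the expression filter only through the Axin1+ libraries. Genes admitted in this way could hardly come out other than higher. Both are included in the counts, the share called and the median, so the direction of the list cannot be read from them. SMOC1, a small calcium-binding matrix protein of basement membranes, rose from 0.374 CPM ± 0.0481 to 57.4 CPM ± 19.0 (log2 fold change 7.24, SE 0.36, edgeR adjusted p = 1.46e-06). HSPG2, perlecan, the heparan sulfate proteoglycan that ties laminin to collagen, rose from 53.0 CPM ± 5.21 to 135 CPM ± 31.1 (log2 fold change 1.35, SE 0.17, edgeR adjusted p = 0.00049; SD, n = 4 each). MATN2, a matrix adaptor protein, had a log2 fold change of 1.44 (edgeR adjusted p = 0.0208), a call lost without Axin1+ replicate 4 (edgeR adjusted p = 0.0605). Of the type IV collagen genes, COL4A5 had no count in any wt library and 20 to 99 counts in Axin1+, at least 12.8-fold higher against 3 counts per wt library. COL4A6 and COL4A4, too low to be tested and named after their values were seen, also had no count in wt, and had 9 to 42 and 5 to 33 counts in Axin1+, at least 4.66-fold and 3.55-fold higher. COL4A1 and COL4A2, the usual chains, summed to 1 and 12 counts over the wt libraries and to 3 and 16 over the Axin1+ libraries. NID1, nidogen, which binds the LAMC1 short arm, was named for that role and averaged 191 CPM ± 80.4 in wt and 415 CPM ± 188 in Axin1+ (SD, n = 4 each). Its log2 fold change, 1.12 (edgeR adjusted p = 0.0753), passed the threshold without Axin1+ replicate 1 (1.37, edgeR adjusted p = 0.0227). Genes called in the list numbered 9 without wt replicate 1, and 7 without wt replicate 3, wt replicate 4 or Axin1+ replicate 1, and with both replicate 1 libraries left out 7 were higher and 2 lower.

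Enzymes that build the sugar on dystroglycan to which laminin binds formed a list of 18 genes, 17 of them tested, with 0 called higher, 2 lower and 15 not called (11.8% called, compared with 19.2% of all tested genes; median log2 fold change 0.08). An unadjusted p under 0.05 was found for 7 of the 17, compared with 33.5% of all tested genes, and DESeq2 called 2 higher and 3 lower. DPM2, a subunit of dolichol-phosphate mannose synthesis, fell from 82.2 CPM ± 13.9 to 53.3 CPM ± 7.53 (log2 fold change -0.63, SE 0.15, edgeR adjusted p = 0.0176; SD, n = 4 each), and missed the threshold without Axin1+ replicate 4 (edgeR adjusted p = 0.0559). POMT1, an O-mannosyltransferase, had a log2 fold change of -0.42 (edgeR adjusted p = 0.0479), a call lost in 14 of 20 alternative fits, among them each with 1 library left out (edgeR adjusted p = 0.0583 to 0.112). GMPPB, which makes the GDP-mannose that this pathway uses, did not pass, at a log2 fold change of -0.46 (edgeR adjusted p = 0.0560). Without Axin1+ replicate 4 no gene of the list was called, without wt replicates 2 or 3 or Axin1+ replicates 2 or 3 it was 1, and with both replicate 1 libraries left out 2 were higher and 2 lower.

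Proteases and inhibitors that act on laminins or their matrix formed a list of 20 genes, 12 of them tested, with 4 called higher, 1 lower and 7 not called (41.7% called, compared with 19.2% of all tested genes; median log2 fold change 0.74). MMP7 (6 to 34 counts in wt) and TLL2 (2 to 10, not called and named for this) would not have passed the expression filter on the wt libraries alone. Both are included in the share called and the median, so the direction of the list cannot be read from these. MMP14, a membrane-bound matrix metalloproteinase, rose from 13.4 CPM ± 4.67 to 78.0 CPM ± 22.5 (log2 fold change 2.54, SE 0.27, edgeR adjusted p = 0.00022; SD, n = 4 each). MMP15, a related membrane enzyme, rose from 63.8 CPM ± 20.8 to 114 CPM ± 16.6 (log2 fold change 0.84, edgeR adjusted p = 0.0257), a call lost without wt replicates 2 or 3 or Axin1+ replicates 3 or 4 (edgeR adjusted p = 0.0515 to 0.0817). CTSS, a lysosomal cysteine protease, had a log2 fold change of 0.64 (edgeR adjusted p = 0.0183), lost without wt replicate 2 (edgeR adjusted p = 0.0557) and with an offset for GC content and length (edgeR adjusted p = 0.127). MMP7, at 12.2 CPM in Axin1+ replicate 1 and 3.05 to 3.59 CPM in the other Axin1+ libraries, had a log2 fold change of 2.0 (edgeR adjusted p = 0.0357), which was 1.26 without that library (edgeR adjusted p = 0.0816) and missed the threshold in 5 other fits with 1 library left out. HPN, hepsin, a membrane serine protease of hepatocytes, fell from 37.6 CPM ± 16.3 to 15.4 CPM ± 6.75 (log2 fold change -1.30, SE 0.37, edgeR adjusted p = 0.0329), a call lost without wt replicate 2 or Axin1+ replicate 4 (edgeR adjusted p = 0.0717 and 0.0985). Genes called in the list numbered 1 without wt replicate 2, 3 without wt replicate 3 or Axin1+ replicate 3, and 2 without Axin1+ replicate 4. With both replicate 1 libraries left out 6 were higher and 1 lower.

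**Figure D5:**
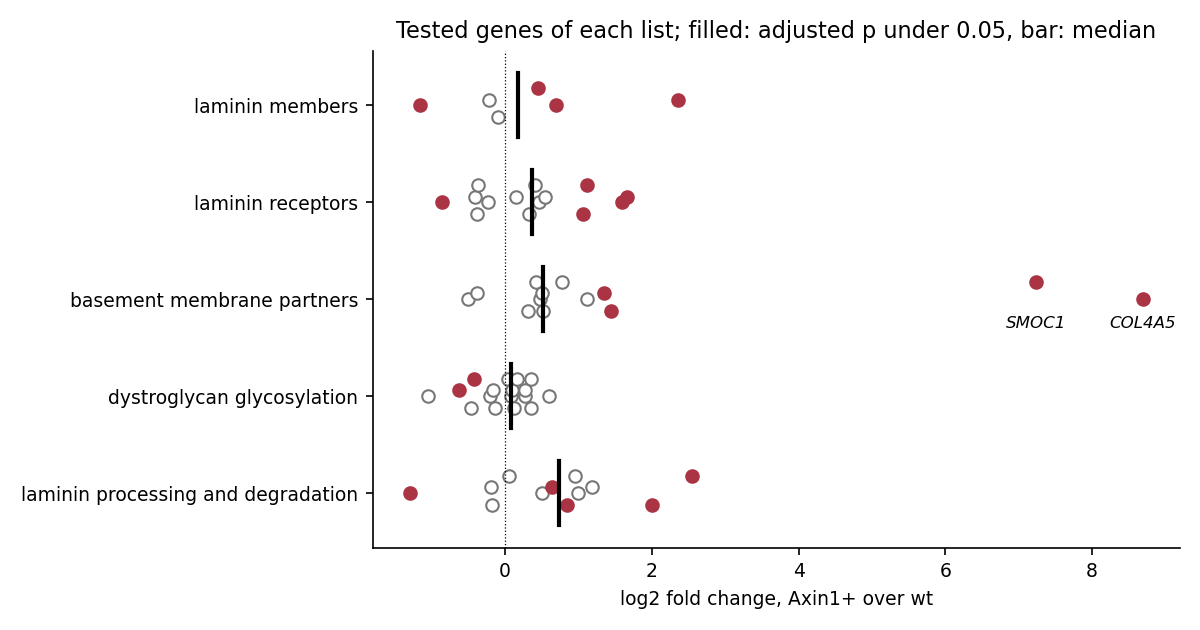
Log2 fold change of the tested genes of each list (filled where the adjusted p was under 0.05), with the list median as a bar. The laminin genes spread from -1.16 to 2.36, and SMOC1 (7.24) and COL4A5 lie far to the right of the other basement membrane genes; the fitted value of COL4A5 rests on wt libraries without counts.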

How the data were processed

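RNA was sequenced from 8 samples, 4 wt and 4 Axin1+, grouped by their titles. The authors deposited 1 table of unnormalized gene counts. Per the submitters' processing notes, bcl2fastq, fastp 0.23.1 and STAR 2.7.4 were named with the build GRCh38; the counting program, annotation and use of strand are not given in the sources used here. Per the labels' protocols libraries were made with an mRNA kit. Nothing says that replicates were separate cultures, so p-values measure the spread between these samples, which may be technical. Columns were matched by the names in the labels, and 0 belonged to no sample.

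GENCODE 29 (GRCh38) held 57943 of the 58206 identifiers and gave positions, exon lengths and overlaps, and to a symbol table (57495).

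The tests used edgeR 4.0.16 under R 4.3.3: filterByExpr (minimum count 10, minimum total 15), TMM scaling, glmQLFit and glmQLFTest without covariates, two-sided, Benjamini-Hochberg over 14289 genes. Each standard error is the size of the log2 fold change divided by the root of its F value. Alternatives used DESeq2 1.42.0 and limma 3.58.1. CPM per kb uses the union of exons. Floors cover counting error only.

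The laminin genes and the lists were chosen with earlier results of these data known. Named are the laminin genes, AXIN1, the 4 tested genes of each list with the smallest p-value and every list gene called; others are marked where they appear. Lists are described by counts, with no set test. Some genes that this rule would name are not reported here.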

Additional observations from a re-analysis of the deposited data

Results flagged for a closer look

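In 8 of the 53 groups of 4 libraries examined for the laminin and other named genes, 1 library lay far from the other 3 (by Dixon's criterion, the gap to the nearest library over the range of the group), where chance flags about 1 in 20 groups. Among laminins these were LAMB3 in wt replicate 1, at 22.1 CPM against 3.44 to 3.86 CPM, and LAMB1 in Axin1+ replicate 1, at 258.5 CPM against 162 to 175 CPM. Axin1+ replicate 1 also stood apart for COL4A5 (0.717 CPM against 3.79 to 3.86), MMP7 (12.2 CPM against 3.05 to 3.59) and ITGB4 (49.5 CPM against 9.49 to 11.8). Likewise wt replicate 1 stood apart for ITGA1 (27.0 CPM against 37.9 to 38.5) and MATN2 (0.89 CPM against 2.36 to 2.44), and Axin1+ replicate 4 for DPM2 (42.1 CPM against 55.6 to 58.0).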

How the results depend on the processing

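LAMA3, LAMA5, LAMB2 and LAMB3 were the laminin genes called with size factors from DESeq2, with upper-quartile or total-count scaling, with both filters, with DESeq2 and limma-voom, with the GC and length offset with and without the replicate block, and after thinning. At an adjusted p under 0.01 the calls were 964 genes in all, 1 laminin, 3 receptors, 0 glycosylation and 1 processing gene. With 1 library left out they ranged from 1394 to 3523, 1 to 5, 3 to 6, 0 to 2 and 1 to 6, and from 3 to 9 for basement membrane partners; the cause was not tested. With both replicate 1 libraries left out they were 4623 genes, 9 receptors, 9 basement membrane partners and 4 glycosylation genes. Without an expression filter 10 basement membrane partners were called. Glycosylation calls were 1 with total counts only, 5 with DESeq2 and 5 with the GC and length offset. With the replicate number as a block, 2 laminins (LAMA3 and LAMB3; LAMA5 had an adjusted p of 0.0643 and LAMB2 of 0.0624) and 1 glycosylation gene were called, and MATN2 (adjusted p 0.0618) and HPN (0.0813) were lost, as they were with the block and offset together (0.0608 and 0.0948); the numbers do not pair the samples (deviations correlated from -0.0629 to 0.227, and 1 of 8 libraries correlated best with its own number). With the longest transcript as gene length, the LAMB1 share of beta chains was 50.1% in wt and 35.4% in Axin1+, and that of LAMB2 in wt 47.6%, so LAMB1 then exceeded LAMB2 in wt. LAMC1 ranged from -0.1652 to 0.01503 (log2) with 1 library left out, the latter, reversed, without Axin1+ replicate 2. Leaving out both replicate 1 libraries was chosen after seeing the data. LAMA1, LAMA2 and LAMA4 are limited by depth.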

Other observations

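NTN1, a netrin whose short arm resembles that of the laminin gamma chains, was too low to be tested. It had 0.089 to 0.339 CPM in wt and 0.660 to 2.22 CPM in Axin1+, which do not overlap, on 10 counts over the wt and 115 over the Axin1+ libraries. It was named after its values were seen.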
